A study of Mus musculus with 12 samples.

Results

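A total of 35 genes of the sarcomere and of striated muscle were followed in splenic CD8+ T cells of mice, out of 24421 genes in the authors' deposited table, to see whether the titin gene Ttn was higher without linker histone H1 alone or together with other muscle genes. The members were matched by symbol, and the list was drawn up with the rise of Ttn in this same comparison already known, so counts and fold changes of the members are a description and carry no test of their own. The series set wild-type (WT) C57BL/6 mice against C57BL/6 mice of the genotype cTKO, a triple knockout of linker histone H1, in lymphocytes sorted from spleen (B, CD4+ T and CD8+ T cells), with 12 samples in 6 groups of 2 animals. Only the CD8+ comparison was analysed here, with 1 female and 1 male WT animal and 1 female and 1 male cTKO animal. Polyadenylated RNA was sequenced from cells sorted by flow cytometry. The sources used here do not give the ages of the animals, the knockout alleles, any Cre driver or the cells in which the deletion was made. P-values refer to these 4 animals, and with groups of 2 the tests take the spread of a gene partly from other genes. In bulk RNA, fewer cells of a type and less RNA per cell cannot be told apart.

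The sarcomere is the repeating contractile unit of heart and skeletal muscle, in which myosin thick filaments slide along actin thin filaments when calcium binds the troponin complex. Titin spans from the Z-disc to the M-band as a molecular spring, α-actinin cross-links actin at the Z-disc, and the ryanodine receptor releases the calcium that starts contraction. Most of these genes are used in muscle fibres and cardiomyocytes and are normally silent or very low in lymphocytes, whose own contractile machinery uses non-muscle actin, myosin and α-actinin.

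Of the 35 muscle genes, 7 were higher in cTKO, 1 was lower, 6 were tested and not called, 18 had too few reads for a test and 3 had no read in any library. The 7 higher genes were Ttn, Nebl, Myl1, Tnnt1, Myom2, Ryr1 and Dmd, and the lower one was Actn2. Ttn was therefore not alone, but the genes that make up the bulk of a sarcomere, the muscle myosin heavy chains and the muscle actins, stayed at or near 0 reads in all 4 libraries. A gene counts as called, higher or lower, at an adjusted p under 0.05 in the authors' deposited table (DESeq2). Among all 12972 genes with an adjusted p, 9.77% were called higher and 3.61% lower. Among genes with a mean from 10 to 100 normalized counts, where 11 of the 14 tested members lie, 19.6% were called higher and 2.16% lower, and among those with a mean from 100 to 1000, where Ttn and Actn2 lie, 9.81% and 3.88%. Only genes with a mean of at least 3.45 over all 4 libraries were tested. A gene nearly empty in WT was therefore tested only where cTKO was higher. The median log2 fold change was 2.78 over the 14 tested members, 0.04 over all genes tested and 0.72 over tested genes with a mean from 10 to 100. These shares are given beside the members' counts as background, and nothing is read from the contrast because the list was chosen with it in view.

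The deposited table holds one mean normalized count per gene and no column per animal. Those means are sums of whole reads divided by a size factor per library, so the reads in each library could be worked back below a mean of 1000. This succeeded for 14151 of 14173 such genes (99.8%), all 35 muscle genes included. The WT libraries had size factors of 1.21 and 0.866 and the cTKO libraries 1.21 and 0.805, by which the larger and the smaller library of a genotype are named. The recovery shows the genotype of a library. Which animal each library came from was not worked out, and reads of sex-linked genes were not used for it. Read counts below are given in the order larger WT, smaller WT, larger cTKO, smaller cTKO library.

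The labels were checked first on the H1 genes. Hist1h1c had 41, 56, 0 and 0 reads, Hist1h1d 5, 11, 0 and 0, and Hist1h1e 64, 112, 0 and 0. All 3 were at 0 in both cTKO libraries, and on this ground a positive fold change was taken to mean higher in cTKO, since the file headers do not give the direction. CD8+ T cell identity genes were abundant, and of 11 tested none was called (1 higher and 1 lower at an unadjusted p under 0.05, by DESeq2 in the authors' deposited table). They lie too high for reads to be recovered, so limma was not run on them. Some genes on lists of markers for other cells moved with genotype, and the cells that made these transcripts are not known. Of 8 NK cell markers, 6 were called higher. Ncr1 and Klra4 were not called (adjusted p = 0.585 and 0.361, authors' deposited table). The 6 with recovered reads had sums of 394 and 380 normalized reads in the WT libraries and of 3004 and 2155 in the cTKO libraries. Myeloid and dendritic markers numbered 12, with sums of 181 and 142 in WT and 2641 and 914 in cTKO. Of the 8 tested, Itgax (56, 44, 2429 and 509 reads) and Itgam (34, 30, 434 and 138 reads), which hold most of these sums in cTKO, were called higher, and Lyz2, Csf1r and Cd68 were not called. Fcgr3 went the other way, with 28, 11, 1 and 0 reads (adjusted p = 0.0503, authors' deposited table), and limma on recovered reads called 1 marker of this list, Fcgr3, lower. S100a8 and S100a9 had 0 reads in WT and 22 and 19 reads in the larger cTKO library alone. Of 9 fibroblast and stromal markers 2 were tested: Col1a2 was higher (0, 0, 163 and 107 reads) and Pecam1 lower, while Lum had no read and Dcn and Pdgfra 1 read each. Of 8 B cell markers, 5 were tested, and Cd79b was called lower. Whether other cell types were present, and their part in the muscle gene values, was not tested.

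Promoters of called members are shown because these genes were called in the same comparison while lying mostly on different chromosomes. Nebl and Dmd have several annotated starts and are not printed. Each is 300 bases from RefSeq on GRCm38.p6, from 250 bases before to 50 bases after an annotated start, written 5′ to 3′ along the gene, which is the minus strand in each of these 5. Capitals mark the E-box CANNTG, the element bound by myogenic and other helix-loop-helix factors. They also mark CTANNNNTAG, the core of the element bound by MEF2 factors with its middle bases left free. Both motifs read the same on either strand, and the marked matches do not overlap. The windows are chr2:76982498-76982797 for Ttn, chr1:66945007-66945306 for Myl1, chr7:4515926-4516225 for Tnnt1, chr7:29125102-29125401 for Ryr1 and chr13:12340683-12340982 for Actn2, the member that was lower. The Myl1 window lies inside the annotated span of its gene, which runs to base 66947932. Which start was in use was not tested for any of these genes.
Ttn: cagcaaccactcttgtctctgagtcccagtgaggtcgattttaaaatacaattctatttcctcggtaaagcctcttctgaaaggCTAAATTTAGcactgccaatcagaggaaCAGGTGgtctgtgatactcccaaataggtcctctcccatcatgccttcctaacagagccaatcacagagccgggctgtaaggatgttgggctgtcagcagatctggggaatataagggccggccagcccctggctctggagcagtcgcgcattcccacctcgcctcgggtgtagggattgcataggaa
Myl1: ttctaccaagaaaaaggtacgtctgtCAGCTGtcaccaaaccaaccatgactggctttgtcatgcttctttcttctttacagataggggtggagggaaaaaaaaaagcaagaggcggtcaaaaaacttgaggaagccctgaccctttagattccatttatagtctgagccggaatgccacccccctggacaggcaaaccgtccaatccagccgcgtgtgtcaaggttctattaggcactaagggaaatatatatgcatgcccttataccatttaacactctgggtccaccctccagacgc
Tnnt1: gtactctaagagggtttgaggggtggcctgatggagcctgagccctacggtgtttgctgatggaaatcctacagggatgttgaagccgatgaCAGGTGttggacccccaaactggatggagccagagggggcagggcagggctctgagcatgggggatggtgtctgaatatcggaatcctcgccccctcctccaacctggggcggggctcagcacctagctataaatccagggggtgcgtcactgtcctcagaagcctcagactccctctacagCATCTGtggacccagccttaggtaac
Ryr1: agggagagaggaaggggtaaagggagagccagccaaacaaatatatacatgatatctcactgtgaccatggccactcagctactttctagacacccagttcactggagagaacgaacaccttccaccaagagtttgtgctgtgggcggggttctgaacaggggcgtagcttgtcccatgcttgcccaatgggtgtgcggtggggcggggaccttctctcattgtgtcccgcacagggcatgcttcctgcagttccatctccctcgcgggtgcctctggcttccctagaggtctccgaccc
Actn2: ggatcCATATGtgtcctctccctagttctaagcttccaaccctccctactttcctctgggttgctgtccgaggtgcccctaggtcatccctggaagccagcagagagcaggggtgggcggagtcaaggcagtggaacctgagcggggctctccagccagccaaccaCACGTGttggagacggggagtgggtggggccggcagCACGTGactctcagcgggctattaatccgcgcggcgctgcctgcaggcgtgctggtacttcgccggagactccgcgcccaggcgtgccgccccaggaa

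The Ttn window holds 1 MEF2 core and 1 E-box, the Myl1 window 1 E-box, the Tnnt1 window 2 E-boxes, the Ryr1 window neither, and the Actn2 window 3 E-boxes. A RefSeq promoter was found for 30 of the 35 muscle genes, 39 promoters in all, and none was used for Actn3, Myom2, Neb, Tnni2 and Tnnt3. Windows of the same gene overlap for Ldb3, Tnni1 and Myh7, so a match there can be counted more than once. CANNTG is in 31 of these 39 and in 72.3% of all 32851 mouse promoters of this length. CTANNNNTAG is in 5 of 39 and in 3.69% of all, and TATAAA (both strands searched) in 11 of 39 and in 13.6%. The CArG box, the element of serum response factor, is in 9 of 39 (both strands searched) and in 1.63% of all promoters, and 2 of those 9 belong to higher members, an Nebl and a Dmd promoter. TGTGGT, the core of the RUNX element of T cells (both strands searched), is in 9 of 39 and in 16.8%, among them the Actn2 window and 1 of 4 Nebl promoters. CpG dinucleotides number 19 in the Actn2 window, 9 in that of Ryr1, 8 in that of Ttn, 7 in that of Myl1 and 6 in that of Tnnt1, beside a median of 5 over the member promoters and 7 over all. A match is a string of letters and not a binding site, and a window with no match says only that those letters are not in it.

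**Figure D1:**
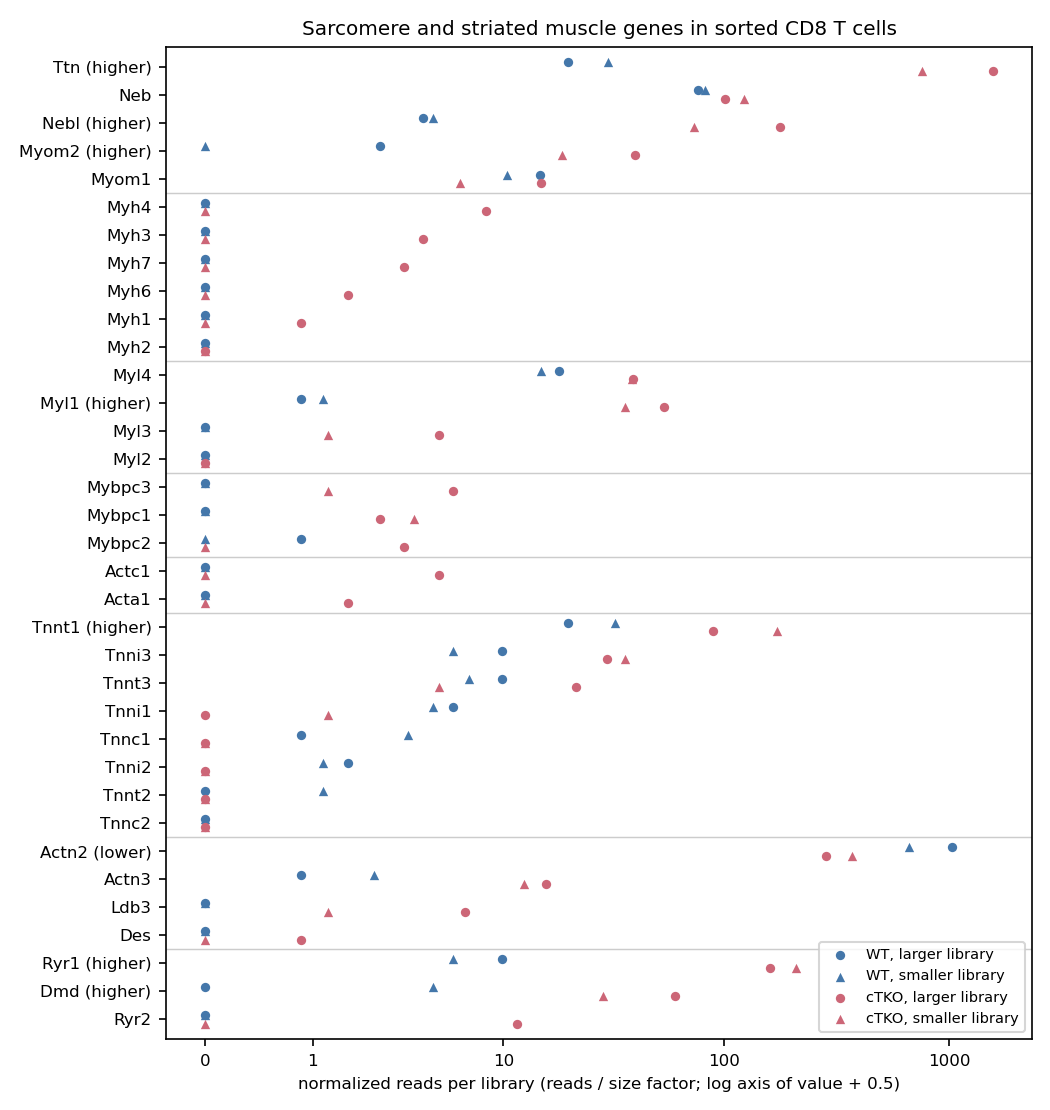
Normalized reads (reads divided by the size factor; log axis of the value plus 0.5) of the 35 muscle genes in the 2 WT and 2 cTKO libraries of CD8+ T cells, grouped by role, with circles for the larger and triangles for the smaller library of each genotype. Ttn, Nebl, Myl1, Tnnt1, Myom2, Ryr1 and Dmd have both cTKO points to the right of both WT points, Actn2 has both to the left, and the myosin heavy chains show a point above 0 in the larger cTKO library alone.

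Giant and scaffold proteins gave 3 of the 7 higher genes. Ttn (chr2:76703980-76982557, minus strand), which encodes the spring of the sarcomere, had 24, 26, 1885 and 609 reads, or 19.8 and 30.0 normalized reads in WT against 1561 and 757 in cTKO. The groups lie far apart, and the larger cTKO library held 2.06 times the normalized reads of the smaller one. In the authors' deposited table Ttn has a log2 fold change of 5.56, with an SE of 0.45 and an adjusted p of 2.98e-31. Nebl (chr2:17342673-17734949, minus strand), which encodes nebulette, an actin-binding Z-disc protein of the heart, had 5, 4, 215 and 59 reads. WT was nearly empty in both libraries and cTKO was well above it in both, again with the larger cTKO library ahead. On the log2 scale the authors' deposited table puts the change at 4.86, with an SE of 0.79 and an adjusted p of 4.34e-08. Nebl has several annotated starts, its values are for the gene as a whole, and which product the reads came from was not tested. Neb, the ruler of the thin filament in skeletal muscle and the long relative of nebulette, had 93, 71, 122 and 99 reads. After normalization the groups did not overlap, with cTKO above (76.6 and 82.0 against 101 and 123), and the authors' deposited table did not call Neb, at a log2 change of 0.50 with an SE of 0.49 and an adjusted p of 0.561.

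The 2 myomesins, which cross-link thick filaments at the M-band, differed in their calls. Myom2 (chr8:15057653-15133420, plus strand) had 3, 0, 48 and 15 reads, so WT was at or near 0 and both cTKO libraries stood above it. The ratio of normalized reads was 21.7 with a 95% counting interval from 7.10 to 108, and the log2 change that the authors' deposited table holds was 4.44, with an SE of 1.39 and an adjusted p of 0.0159. Myom1 had 18, 9, 18 and 5 reads, with overlapping groups and an adjusted p of 0.925 in the authors' deposited table. The difference between the myomesins was not tested.

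Muscle myosin heavy chains, the motors of the thick filament, were not tested, because their means lie under the lowest tested mean of 3.45. Myh2 of fast fibres had no read. Myh1 had 1 read, Myh3 (embryonic muscle) 5, Myh4 (fast fibres) 10, Myh6 (atrium) 2 and Myh7 (slow fibres and ventricle) 4, and every one of these 22 reads was in the larger cTKO library. Their sequences are close enough that reads can be split or lost between copies, which makes single values uncertain. A count of 0 in the other 3 libraries allows up to 3 reads in each.

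Of the myosin light chains, Myl1 alone was called. Myl1 (chr1:66924295-66947932, minus strand), the essential light chain of fast skeletal muscle, had 1, 1, 65 and 29 reads. WT had a single read per library, and both cTKO libraries had many. The ratio of normalized reads was 48.6 with a 95% counting interval from 13.1 to 407, and the log2 change of 5.54 in the authors' deposited table had an SE of 1.34 and an adjusted p of 0.000717. Myl4, the light chain of atrium and embryonic muscle, was present in WT: 22 and 13 reads against 47 and 31. Its groups did not overlap, and the authors' deposited table did not call it, at a log2 change of 1.22 with an SE of 0.81 and an adjusted p of 0.339. Myl3, the ventricular and slow-fibre form, had 0, 0, 6 and 1 reads and no test, and Myl2, the ventricular regulatory light chain, had none.

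The 3 myosin-binding proteins C, which tune the thick filament, stayed at the edge of detection and were not tested. Mybpc1 had 0, 0, 3 and 3 reads, Mybpc2 1, 0, 4 and 0, and Mybpc3, the cardiac form, 0, 0, 7 and 1. The muscle actins were lower still, Acta1 of skeletal muscle with 0, 0, 2 and 0 reads and Actc1 of the heart with 0, 0, 6 and 0. These 2 genes encode the main thin filament proteins of a muscle fibre, which are nearly the same proteins as the non-muscle actins. Whether any of these reads were misplaced between actin genes was not tested.

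Troponins turn calcium into movement of the thin filament. Tnnt1 (chr7:4504569-4515975, minus strand), the slow skeletal troponin T, had 24, 28, 107 and 139 reads, or 19.8 and 32.3 normalized reads in WT and 88.6 and 173 in cTKO. It was expressed in WT, and here the smaller cTKO library was the higher one. The authors' deposited table has Tnnt1 at a log2 change of 2.33, with an SE of 0.60 and an adjusted p of 0.00186. Tnni3, cardiac troponin I, lies 2329 bases from Tnnt1 and had 12, 5, 36 and 29 reads. Its groups did not overlap, and with an adjusted p of 0.143 in the authors' deposited table its log2 change of 2.05 (SE 0.96) missed the threshold. Tnnt3 of fast muscle had 12, 6, 26 and 4 reads, so the 2 cTKO libraries lay on either side of WT (adjusted p = 0.789, authors' deposited table). The remaining troponins had few reads, most of them in WT. Tnni1 had 7, 4, 0 and 1 reads, Tnni2 2, 1, 0 and 0, Tnnc1 1, 3, 0 and 0 and Tnnt2, the cardiac troponin T, 0, 1, 0 and 0. Tnnc2 had no read. Tnnt1 had no called partner among the troponin I and troponin C genes with which its protein works in muscle.

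Of the α-actinins and their Z-disc and filament partners Actn3, Ldb3 and Des, Actn2 alone was called, and it was lower. Actn2 (chr13:12269426-12340732, minus strand), the α-actinin of heart and of all skeletal fibres, had 1255, 575, 341 and 299 reads, which is 1033 and 664 normalized reads in WT and 282 and 371 in cTKO. It was the member with the highest level in WT, and the groups did not overlap, with cTKO below WT. The log2 change of Actn2 was -1.38 in the authors' deposited table, with an SE of 0.37 and an adjusted p of 0.00273, a fall of 2.60-fold. Actn3, the α-actinin of fast fibres, went the other way in reads (1, 2, 19 and 10) and was not called in the authors' deposited table, at a log2 change of 3.22 with an SE of 1.60 and an adjusted p of 0.176. Actn3 was called with limma at a pseudocount of 1 (log2 fold change 2.61, adjusted p = 0.0491). Ldb3, which anchors α-actinin at the Z-disc, had 0, 0, 8 and 1 reads. Des, the muscle intermediate filament, had 1 read in all, in the larger cTKO library.

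Of 3 genes of calcium release and of the membrane, 2 were tested and both were higher. Ryr1 (chr7:29003340-29125179, minus strand), the calcium release channel of skeletal muscle, had 12, 5, 193 and 168 reads, or 9.88 and 5.77 normalized reads in WT against 160 and 209 in cTKO. Both cTKO libraries were high, and after normalization the smaller one was ahead, as for Tnnt1 and unlike Ttn and Nebl. For Ryr1 the authors' deposited table has a log2 change of 4.52, with an SE of 0.61 and an adjusted p of 2.07e-11. Its end lies 60 bases from Map4k1, a kinase gene on the other strand that is highly expressed here and was not called (log2 change -0.57 with an adjusted p of 0.197 in the authors' deposited table). The sources used here do not say whether counting used the strand. Ryr2, the cardiac channel, had 14 reads, all in the larger cTKO library, and no test. Dmd (chrX:82814664-85205050, plus strand), whose product dystrophin ties actin to the muscle membrane, had 0, 4, 73 and 23 reads. Both cTKO libraries were well above WT, and the log2 change of 4.40 in the authors' deposited table had an SE of 1.19 and an adjusted p of 0.00335. Dmd too has several annotated starts, and which product its reads came from was not tested.

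**Figure D2:**
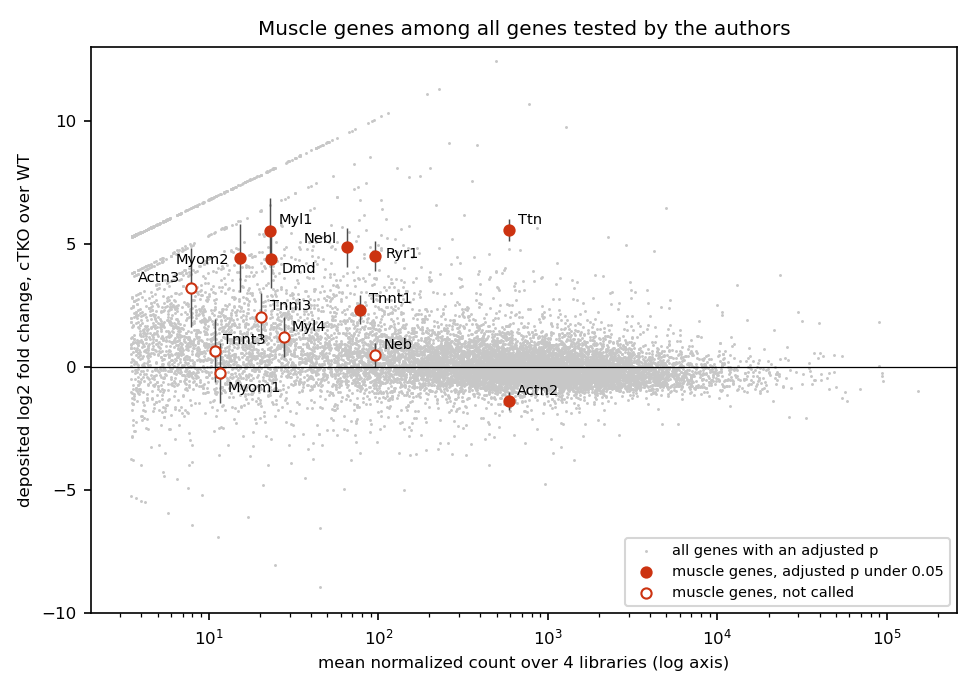
Deposited log2 fold change (cTKO over WT, bars 1 SE) against the mean normalized count (log axis) for all 12972 genes with an adjusted p (grey) and for the 14 muscle genes among them, filled where the adjusted p was under 0.05. Ttn at 5.56 and Actn2 at -1.38 have nearly the same mean and stand on opposite sides of the cloud, and the other called members have means under 100.

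Over the 14 tested members, 11 had both cTKO values above both WT values, Actn2 had both below, and Tnnt3 and Myom1 overlapped. Over the 8970 tested genes with recovered reads, 37.2% had cTKO above and 22.2% had it below in the same sense. Myl1, Myom2, Actn3 and Dmd reached the lowest tested mean of 3.45 only through cTKO. Their WT means were 0.99, 1.24, 1.57 and 2.31 normalized reads. The filter on the mean thus partly fixed the count of 11 members, and nothing is read from it. The 18 members with reads and no test had 100 reads together, of which 11, 9, 73 and 7 fell in the 4 libraries. The larger cTKO library held 73% of these reads, and it held 63.6% of the 20532 reads of all 5181 genes with reads and no test. Reads in the larger cTKO library alone were found for 9 of the 18 members (50%) and for 51.3% of the 5181 genes. The members' shares lay near those of all such genes. A single read in 1 library alone was found for 1165 genes in that library, for 156 in the smaller cTKO library and for 102 and 97 in the WT libraries.

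Levels were compared between genes per kilobase of coding sequence, which assumes that reads cover the whole coding length. The table does not show where in a gene the reads lie. Per coding kilobase, Ttn rose from 0.24 normalized reads in WT to 11.0 in cTKO, which is percentile 32.4 of the 15987 genes with reads and a coding length. Its coding sequence is 106 kb long, so even the 1885 reads of the larger cTKO library are few per kilobase. Actn2 went from 316 to 122 per kilobase and Tnnt1 from 33.1 to 166, so Tnnt1 was the higher of the pair in cTKO. Myl1 reached 79.7 per kilobase in cTKO, Nebl 41.3, Ryr1 12.1, Myom2 6.65 and Dmd 4.03. All these lie far under the genes of the cell's own identity: Cd8a, the CD8 co-receptor, stood at 30387 per kilobase in WT and 24411 in cTKO. Myh9, the main non-muscle myosin heavy chain of these cells, stood at 636 per kilobase in WT and 1333 in cTKO and was not called. Actn1, the non-muscle α-actinin, stood at 365 in WT and 160 in cTKO, near the level of Actn2. Per kilobase of the whole transcript in place of its coding sequence, Nebl stood at 15.6 in cTKO and Myl1 at 41.5. Cd8a stood at 7199 in WT and 5783 in cTKO, and each of these values was lower by more than 1.5 times. As means over the cTKO libraries Tnnt1 (123) stayed above Actn2 (109), but in the larger cTKO library Actn2 was above Tnnt1.

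**Figure D3:**
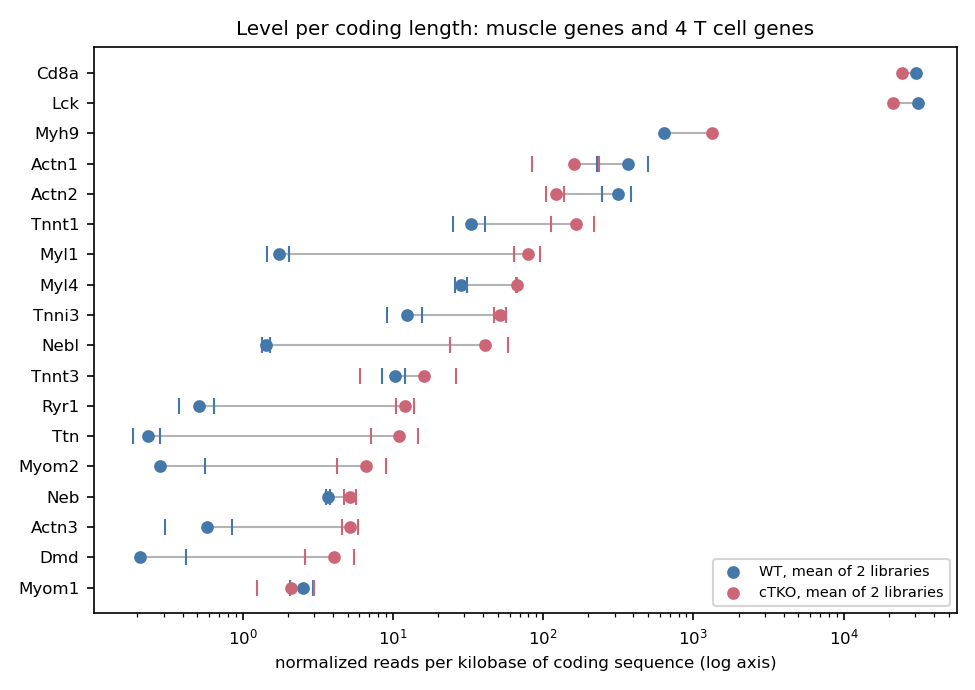
Normalized reads per kilobase of coding sequence (log axis) in WT and cTKO for the 14 tested muscle genes and 4 genes of T cells (Cd8a, Lck, Myh9, Actn1). Points are means of 2 libraries and ticks the single libraries, with no tick for a library at 0 (Myom2 smaller WT, Dmd larger WT) and none for Cd8a, Lck and Myh9, whose reads per library were not recovered. Ttn ends at 11.0 in cTKO, under Tnnt1 at 166 and Actn2 at 122, and Cd8a at 24411.

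Other genes of muscle were counted in lists that hold no member. As background, 9.77% of all genes tested were called higher and 3.61% lower. Of 42 further sarcomere and Z-disc genes, 13 had no read, 10 were tested and 3 were called higher. None was lower (1 at an unadjusted p under 0.05 in the authors' test, 0 by limma). That gene was Mylpf, a myosin light chain of fast muscle, with a mean of 197 normalized counts. Its log2 change was -1.08 (adjusted p = 0.0898, authors' deposited table). The median log2 fold change of the 10 tested genes was -0.11. Obsl1, an obscurin-like scaffold protein, had 0, 0, 101 and 44 reads, at least 50.0-fold higher against a floor of 3 reads over the WT libraries (adjusted p = 4.92e-06, authors' deposited table). Smyd1, a methyltransferase with a part in heart and muscle, had 29, 45, 227 and 98 reads (adjusted p = 0.00423, authors' deposited table). It was thus present in WT, and whether any of its reads came from a neighbouring gene was not tested. Fhl2, a LIM-domain protein of the heart that also acts elsewhere, had 102, 90, 323 and 216 reads (adjusted p = 0.00392, authors' deposited table). The most abundant genes of the list, Tpm1 (674, 567, 512 and 456 reads) and Ankrd23 (1016, 316, 495 and 206 reads), were not called.

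**Figure D4:**
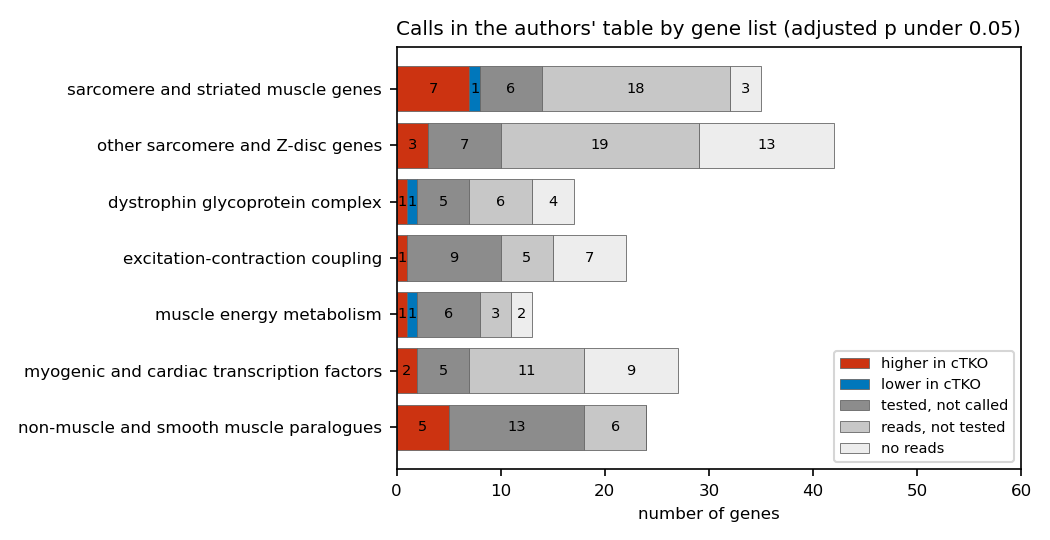
Number of genes per list that were called higher or lower in cTKO (adjusted p under 0.05 in the authors' table), tested and not called, detected without a test, or without reads. The 35 sarcomere and striated muscle genes show 7 higher and 1 lower, the 5 other muscle lists show 1 to 3 higher genes each, and the non-muscle and smooth muscle paralogues 5.

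Of 17 genes of the dystrophin glycoprotein complex, the partners of dystrophin, 7 were tested. Sgce, ε-sarcoglycan, was higher with 1, 0, 58 and 65 reads (adjusted p = 0.000216, authors' deposited table), and Sntb1, a syntrophin, was lower with 707, 659, 376 and 212 reads (adjusted p = 0.00648, authors' deposited table). The muscle sarcoglycans Sgca and Sgcd had no read. Utrn, the close relative of dystrophin and the most abundant gene of the list, was not called (log2 change -0.13 with an adjusted p of 0.845 in the authors' deposited table), and neither was Dtnb (894, 598, 843 and 442 reads).

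Of 22 genes of excitation-contraction coupling, the step from membrane signal to calcium release, 10 were tested and 1 was higher. None was lower (0 at an unadjusted p under 0.05, 0 by limma). Asph, a locus that makes a hydroxylase and junctional calcium store proteins, had 10, 10, 104 and 88 reads (adjusted p = 3.37e-05, authors' deposited table). The calcium pump Atp2a3 and Fkbp1a, the most abundant of the list, were not called. Calsequestrins Casq1 and Casq2, which hold calcium beside the ryanodine receptor in muscle, had no read. Of 13 genes of muscle energy metabolism 8 were tested. Phka1, the muscle subunit of phosphorylase kinase, had 0, 0, 154 and 35 reads (adjusted p = 2.01e-06, authors' deposited table). With the WT libraries set to a floor of 3 reads this is 65.1-fold higher, a value without the counting error of cTKO. Ampd1, muscle AMP deaminase, fell from 787 and 483 reads to 18 and 71 (adjusted p = 0.0139, authors' deposited table). Eno3, the other abundant gene of that list, had 333, 305, 389 and 489 reads and was not called. Ckm, muscle creatine kinase, had 1 read in all and Mb, myoglobin, none. Pygm, muscle glycogen phosphorylase, had a mean of 66.6 normalized counts and was not called (adjusted p = 0.167, authors' deposited table).

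Of 27 myogenic and cardiac transcription factors, 7 were tested and 2 were higher. None was lower (0 at an unadjusted p under 0.05, 0 by limma on the 4 with recovered reads). Gata6, a factor of heart and endoderm, had 3, 2, 80 and 107 reads (adjusted p = 2.75e-07, authors' deposited table). Mef2a, which muscle and lymphocytes both use, was higher by 1.43 on the log2 scale (adjusted p = 0.00101, authors' deposited table). Mkl1 and Mef2d, the most abundant of the list, were not called. Myod1, the master factor of skeletal muscle, had 1, 0, 2 and 0 reads, and Myog had none. Of 24 non-muscle and smooth muscle paralogues 18 were tested and 5 were higher, among them Actb, Flna, Vim and Myh10. None was lower (2 at an unadjusted p under 0.05, 0 by limma on 7 genes). Actb, β-actin, was higher by 1.83 on the log2 scale (adjusted p = 0.000313, authors' deposited table). Myh10, a non-muscle myosin heavy chain, had 30, 22, 130 and 94 reads (adjusted p = 0.00257, authors' deposited table).

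The 8 called members lie on chromosomes 1, 2, 7, 8, 13 and X, with Ttn and Nebl both on chromosome 2 and Tnnt1 and Ryr1 both on chromosome 7. Gene spans on GRCm38.p6 run from 11.4 kb for Tnnt1 to 2390 kb for Dmd. The nearest 2 genes with reads on either side of each gave 31 genes, of which 23 were tested, 3 were higher and 1 was lower. The higher neighbours were Dnaaf3 beside Tnnt1, Arhgef10 beside Myom2 and Tab3 beside Dmd, and the lower one was Fam98c beside Ryr1. Ttn had no called neighbour: Plekha3 at 6644 bases had 1648, 1053, 634 and 715 reads (adjusted p = 0.0822, authors' deposited table), and Fkbp7, Ccdc141 and Sestd1 were not called either. Ppp1r12c, on the same strand 805 bases from Tnnt1, was not called (log2 change -0.12 with an adjusted p of 0.860 in the authors' deposited table).

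All 8 calls were also made by limma on log2 of the recovered normalized reads plus 0.5, where 10.2% of 8970 genes were called higher and 2.11% lower. A pseudocount of 1 added Actn3 to these, with 10.5% and 2.23% of genes called. The same 7 higher and 1 lower members were counted with p adjusted over every gene with a p-value (6.4% higher and 2.16% lower of all genes), over genes with a mean of at least 10 (10.8% and 4.18%) and after re-centring (11.4% and 2.64%). At an adjusted p under 0.1 the counts were again 7 and 1 (12.6% and 5.98% of all genes), and under 0.01 they were 6 and 1 (6.35% and 1.77%), without Myom2.

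Leaving out a library leaves 1 in an arm, which limma takes to vary like the other arm. Without either WT library 5 members were called higher, where 4.35% of all genes were without the larger and 4.52% without the smaller one, and Actn2 was lost (0.279% of all genes were called lower in each). Without the larger cTKO library 0 members were called (2.46% of all genes higher, 0.0446% lower), and without the smaller one also 0 (2.74% and 0.0557%). In each of these last fits 6 members had an unadjusted p under 0.05, as 17.1% of all genes did without the larger and 31.8% without the smaller cTKO library. Ttn itself stood at a log2 difference of 4.93 (adjusted p = 0.142, limma) without the larger cTKO library and of 5.97 (adjusted p = 0.0853, limma) without the smaller.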

How the data were processed

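RNA-seq of sorted splenic CD8+ T cells was compared between 2 WT and 2 cTKO mice from a table of the authors' own comparison. STAR and DESeq2 were used, with builds mm10 and GRCm38.p6, per the submitters' processing notes. Their versions, the annotation, the counting tool and the use of strand: not given in the sources used here. Per the file headers, the signal column of the authors is the mean of reads over size factors. Fold changes and standard errors are log2 values deposited by the authors. The test score deposited by the authors equals their ratio. The p-value and adjusted p-value are as deposited. Of the genes with a p-value, those with a mean under 3.45 have no adjusted p.

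Reads per library were worked back as whole numbers from each mean and its fold change. On simulated reads for part of the genes, 3718 of 3724 were solved and all of these were right. Whether the recovered reads match the real reads of each library was not tested, since the deposited table has no column per animal. Means of 1000 and more were not solved. Counting intervals (95%, exact) and floors (3 reads) cover counting error only. The sum of all means is 16257610. Symbols matched RefSeq on GRCm38.p6 for 24387 of 24421 genes. Coding lengths were the longest coding sequence in GENCODE vM21, in place of the RefSeq proteins planned. Alternatives used limma 3.58.1 in R 4.3.3, other filters, thresholds and centring. No label names a batch.

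The members and all gene lists were chosen with earlier results of these data known. All members are accounted for, with reads for each one called or with a mean of at least 10. Of other lists, the called genes (except for 1 that is not reported here) and the 2 with the highest mean are named, and of neighbours the called ones and those of Ttn. Ckm, Mb, Pygm, Mylpf, Myog, Myod1, Sgca, Sgcd, Casq1, Casq2, Lum, Dcn, Pdgfra, S100a8, S100a9, Lyz2, Csf1r, Cd68, Fcgr3, Ncr1, Klra4, Ppp1r12c, Map4k1, Cd8a, Myh9 and Actn1 were named outside that rule, after their values were seen. B cell and CD4+ T cell samples were not analysed here.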

Additional observations from a re-analysis of the deposited data

How the results depend on the processing

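The counts of 7 higher and 1 lower member stayed within 1.5 times under no filter on the mean, a mean of at least 10, fold changes re-centred on genes with a mean of at least 100 (shifting the log2 scale by 0.10), and limma with a pseudocount of 0.5. With a pseudocount of 1 limma called 8 higher and 1 lower. At an adjusted p under 0.01, 6 stayed higher and Myom2 was lost, and an adjusted p under 0.1 added none. Without Ttn, a setting chosen after seeing the data, 6 members were higher. Leaving out each library in turn, limma called from 0 to 5 members in either direction, from 0 to 5 higher and 0 lower. Without the larger WT library Actn2, Tnnt1 and Dmd were lost, without the smaller one Actn2, Tnnt1 and Myom2, and without either cTKO library all 8. The sign of each called member was kept in all 4 fits. A pair of uncalled members changed sign: over the fits Tnnt3 ran from -0.68 (without the larger cTKO library) to 1.33, and Myom1 from -0.94 to 0.25 (without the smaller cTKO library). These fits have fewer samples, and all genes together gave 415, 430, 225 and 251 calls of 8970. Per kilobase of transcript, Ttn stood at 10.8 in cTKO and Actn2 at 282 in WT, while Nebl and Myl1 moved to 15.6 and 41.5 in cTKO, Cd8a to 7199 in WT and 5783 in cTKO, and Myh9 to 503 and 1055. With the nearest 5 neighbours on either side, 9.26% of 54 tested were higher, beside 9.77% of all genes tested. No paired analysis was possible because the WT and cTKO animals carry different numbers in the labels. No label ties a recovered library to an animal or its sex, and reads of sex-linked genes were not used to do so. A block on sex was not run. Depth limits 22 of the 35 members, whose mean is under 10 normalized reads.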

Other observations

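Genes outside the lists that carry the annotation of a sarcomere part were looked at after their values were seen, and their calls are a description. Over all genes tested, 9.77% were called higher and 3.61% lower. Under the terms sarcomere, I band and M band, 1 of 8, 2 of 7 and 3 of 5 tested genes were higher and 0 lower. The higher gene under the term sarcomere was Trpc1. Every higher gene of the I band and the M band is also among the higher Z disc genes below, so these counts are not separate. Of 72 genes annotated to the Z disc that are in none of the lists, 42 were tested, 5 were higher and 2 lower. Jup, plakoglobin of cell junctions, had 23, 25, 383 and 104 reads (adjusted p = 6.47e-07, DESeq2 in the authors' deposited table), in the order larger WT, smaller WT, larger cTKO and smaller cTKO library. S100a1, a calcium-binding protein of heart muscle, had 23, 15, 89 and 78 reads, and Hspb1, a small heat shock protein, had 15, 5, 60 and 55. Ank1, an ankyrin, had 2, 3, 40 and 25 reads, and Atp2b4, a calcium pump of the plasma membrane, had 60, 22, 348 and 56. Anxa5 and Pde4b were the lower ones, with log2 fold changes of -1.45 and -0.85 in the authors' deposited table. Of 14 further genes annotated to the myofibril, 11 were tested and 3 were higher: Kcnj8, an inward rectifier potassium channel, Tmod2, a tropomodulin that caps actin filaments (0, 0, 42 and 13 reads), and Arhgef25 (2, 2, 39 and 19 reads).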
